A study of Mus musculus with 86 samples.

Results

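Claudins are the membrane proteins that form the strands of tight junctions, and 6 of them are described here in single cells of the embryonic mouse kidney: Cldn3, Cldn4, Cldn6, Cldn7, Cldn8 and Cldn9. They are 6 of the 12360 genes in the authors' table of expressed genes, and 6 of its 12 rows named as claudins. They were selected on their RPKM in the classes of cells defined below, which placed 5 of them (Cldn3, Cldn4, Cldn6, Cldn7 and Cldn8, called the bud claudins here) in ureteric bud cells and Cldn9 in progenitor cells. Their levels across these classes are for that reason a description and support nothing.

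RNA was sequenced from 86 single cells of 1 pool of wild-type metanephroi, of mixed background strain and of pooled male and female embryos, at 12.5 days post coitum (Theiler stage 20). Trypsin was used to free the cells, a Fluidigm C1 instrument captured them in separate chambers, and full-length cDNA was read on a HiSeq2500. No cell was treated, and the labels name no cell type, so the cells form a single group that is compared with no other. All cells come from 1 pool, so they count as 1 sample, no difference between cells was tested, and no p-value is given.

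Expression is given as RPKM, a read density per length of gene and per mapped reads of the cell. A cell with an RPKM of 1 or more for a gene is said to detect it. Bud cells were the 7 cells with a Mal2 RPKM of at least 100, where Mal2 encodes a protein of apical transport in epithelia. Of the other 79 cells, 46 detected Six2, the transcription factor that keeps nephron progenitors undifferentiated, and 33 remained. The Mal2 limit cut through a wide gap in the data, and the Six2 limit through a narrow gap at low values. Mal2 lay between 1219 and 2699 in bud cells and at 3.41 or less elsewhere, and Six2 lay at 1.50 or more in Six2-detecting cells and at 0.527 or less in the remaining cells.

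The classes carried the markers of their names to differing degrees. Leaving out Mal2, which defined them, bud cells detected 7 to 9 of 10 listed ureteric bud markers, against 0 to 3 in Six2-detecting cells and 0 to 4 in remaining cells. Leaving out Six2, Six2-detecting cells detected 5 to 10 of 10 nephron progenitor markers, against 1 to 9 in remaining cells, and 31 of the 46 also detected Foxd1, a stroma gene. The remaining cells are mixed: they detected 3 to 12 of 12 stroma markers and 0 to 8 of 8 markers of induced nephrons. Cells had a median of 6488 detected genes in the bud class, 6256 among Six2-detecting and 6087 among remaining cells. Of 5 cells with very few genes, none was a bud cell, 1 was Six2-detecting and 4 were remaining cells. The reads behind each value are unknown.

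At this stage the ureteric bud, a branching epithelial tube that becomes the collecting duct, grows into the cap mesenchyme, whose cells later turn into the epithelium of the nephron. Claudins decide how tightly an epithelium seals and which ions pass between its cells, and each epithelium carries its own set of them. Claudin-3 is a sealing claudin, claudin-4, claudin-7 and claudin-8 are known from the collecting duct and distal nephron, claudin-6 is known from embryonic epithelia, and claudin-9 is needed for hearing in mice.

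Of the 6 genes, 4 lie in pairs on the same chromosome (coordinates in mm9 from the authors' table). Cldn4 (gene 12740, chr5:135420993-135422804) lies 39279 bases from Cldn3 (gene 12739, chr5:135462084-135463346). Cldn6 (gene 54419, chr17:23816332-23819414) lies 136 bases from Cldn9 (gene 56863, chr17:23819551-23820993), and in the GENCODE annotation the pair is convergent, with Cldn6 on the plus and Cldn9 on the minus strand. Cldn7 (gene 53624) lies at chr11:69778281-69781388 and Cldn8 (gene 54420) at chr16:88561071-88563428. The coding sequence has 660 bases in Cldn3, 633 in Cldn4, 660 in Cldn6, 636 in Cldn7, 678 in Cldn8 and 654 in Cldn9. It lies in 1 exon in every member but Cldn7, where 4 exons hold it.

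Among the 15 pairs of members, Cldn6 and Cldn9 had the most alike coding sequences (73.2% identical aligned bases), followed by Cldn3 and Cldn4 (69.8%). The least alike were Cldn7 and Cldn8 (54.7%). The longest identical run of Cldn6 and Cldn9 is shown because reads that fall wholly inside it could come from either gene. It covers 37 bases, in capitals, within coding bases 66 to 142 of both (GRCm38, chr17:23681129-23681205 on the plus strand for Cldn6 and chr17:23683508-23683584 on the minus strand for Cldn9).
Cldn6: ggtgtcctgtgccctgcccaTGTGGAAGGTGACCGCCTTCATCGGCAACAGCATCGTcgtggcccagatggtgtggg
Cldn9: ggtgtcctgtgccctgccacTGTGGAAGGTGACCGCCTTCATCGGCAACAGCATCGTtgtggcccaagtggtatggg
The longest run shared by Cldn3 and Cldn4 covers 35 bases. Cldn9 was detected in 8 of the 10 cells that detected Cldn6, and in 49 of all 86 cells. The part of shared reads in this was not tested.

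Promoter sequence from RefSeq (GRCm38.p6) was on hand for 4 members, in 5 windows of 250 bases before a transcription start, since Cldn7 has 2 starts. The windows are shown because these members had high means over the 7 bud cells, although Cldn4 was detected in only 5 of them. They are also shown because the Snail and Zeb repressors of epithelial genes, described further on, are known to bind the E-box CAGGTG. The windows lie at chr17:23679115-23679364 (plus strand) for Cldn6, chr5:134946935-134947184 (minus strand) for Cldn4, chr11:69965171-69965420 (plus strand) for the second Cldn7 start and chr5:134985964-134986213 (plus strand) for Cldn3. Capitals mark CAGGTG on either strand, so it also appears as CACCTG.
Cldn6: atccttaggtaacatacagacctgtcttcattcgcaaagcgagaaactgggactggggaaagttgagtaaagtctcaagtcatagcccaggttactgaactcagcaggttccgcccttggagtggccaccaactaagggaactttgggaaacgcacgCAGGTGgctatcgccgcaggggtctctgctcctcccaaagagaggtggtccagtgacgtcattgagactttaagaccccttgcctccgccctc
Cldn4: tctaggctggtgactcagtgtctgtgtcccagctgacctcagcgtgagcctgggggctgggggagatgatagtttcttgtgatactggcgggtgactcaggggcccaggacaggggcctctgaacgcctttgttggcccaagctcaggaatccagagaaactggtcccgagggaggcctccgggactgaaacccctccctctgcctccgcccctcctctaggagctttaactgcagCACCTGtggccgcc
Cldn7: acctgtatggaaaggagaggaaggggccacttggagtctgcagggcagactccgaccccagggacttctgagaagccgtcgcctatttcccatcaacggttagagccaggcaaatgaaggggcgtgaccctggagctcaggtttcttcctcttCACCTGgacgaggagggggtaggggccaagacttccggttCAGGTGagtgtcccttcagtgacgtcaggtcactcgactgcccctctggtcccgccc
Cldn3: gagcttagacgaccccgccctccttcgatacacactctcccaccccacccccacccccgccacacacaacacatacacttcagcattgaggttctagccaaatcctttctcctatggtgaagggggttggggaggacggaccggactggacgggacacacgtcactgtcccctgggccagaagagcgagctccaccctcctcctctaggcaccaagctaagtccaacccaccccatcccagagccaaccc
Cldn4 holds the motif once, beginning 14 bases before the start, and Cldn6 once, 93 bases before it. The second Cldn7 window holds it at 97 and 57 bases, while Cldn3 and the first Cldn7 window hold none. That is 3 of 5 windows, where 17.2% of 32851 mouse promoter windows of this length hold it. The motif was chosen with the sequences in view, so this comparison supports nothing. The Grainyhead motif AACCGGTT, searched on both strands, was in 0 of the 5 windows and in 0.116% of all. A match of letters says nothing on binding.

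The bud claudins had high means over the 7 bud cells and were near 0 in most other cells. Cldn3, Cldn6, Cldn7 and Cldn8 were detected in all 7 bud cells (exact Clopper-Pearson 95% interval of the share 59.0 to 100%, counting error only), and Cldn4 in 5. Among the other 79 cells, 13 detected a bud claudin, and 0 detected more than 1 of the 5. Cldn9 did not follow them: it was detected in 5 bud cells, 37 Six2-detecting cells and 7 remaining cells.

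**Figure D1:**
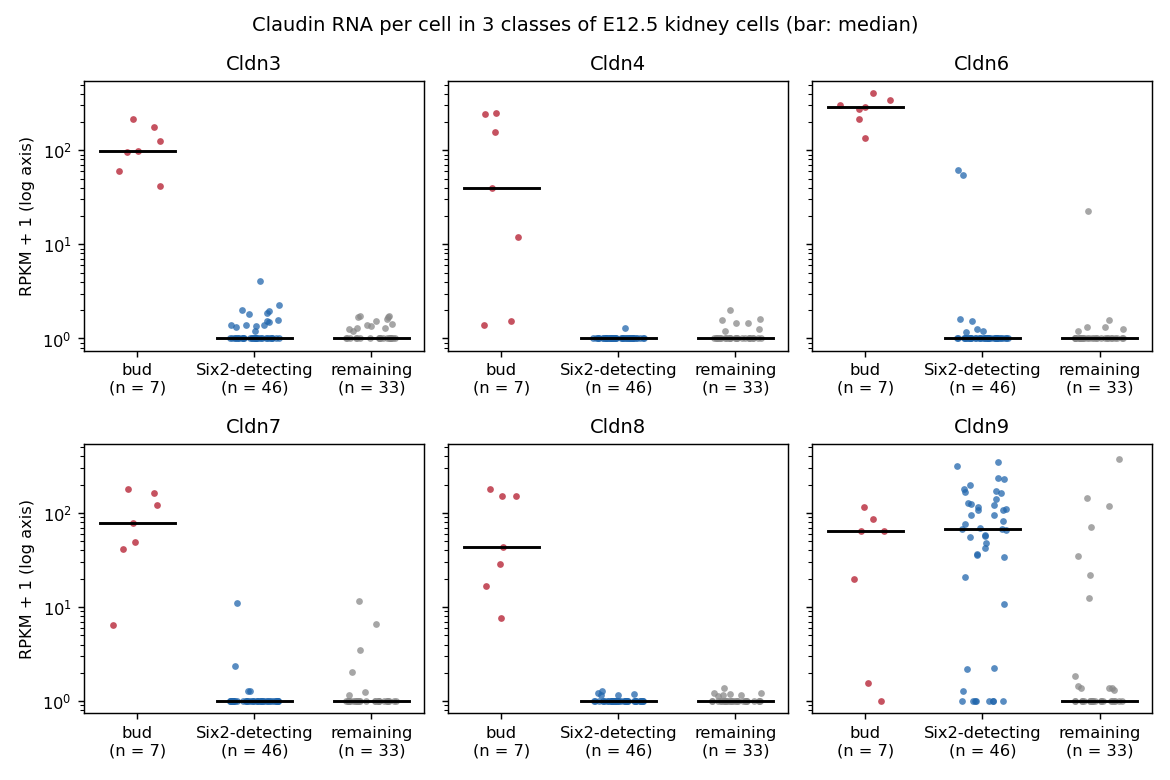
RPKM + 1 of the 6 claudins in each cell (log axis), by class: 7 bud cells, 46 Six2-detecting cells and 33 remaining cells. Each point is a cell and each bar a median. For Cldn3, Cldn4, Cldn6, Cldn7 and Cldn8 the bud cells lie above nearly all others, while for Cldn9 the Six2-detecting cells reach 348 and their median of 66.7 is close to the 63.3 of bud cells.

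Cldn6, the claudin of embryonic epithelia, was the most abundant member in every bud cell. Its RPKM was 403 in cell 3, 213 in cell 18, 274 in cell 20, 134 in cell 47, 299.7 in cell 53, 285 in cell 57 and 344 in cell 74. The mean over bud cells was 279 (SD 86.9). It took 29.3 to 69.7% of the summed RPKM of the 6 members in a cell, a sum that lay between 378 and 1175. All bud cells were above all other cells, whose highest value was 60.4.

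Cldn3, the sealing claudin, was also present throughout the bud cells. It had 97.9 in cell 3, 125 in cell 18, 59.7 in cell 20, 40.8 in cell 47, 94.5 in cell 53, 212 in cell 57 and 177 in cell 74, with a mean of 115 (SD 61.4). It was detected in 3 of 46 Six2-detecting cells, with a highest value of 3.07, and in 0 of 33 remaining cells, which allows a share of up to 9.09%. The bud cells did not overlap either class.

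Cldn4 varied most from cell to cell. Claudin-4 shares the collecting duct with claudin-8, with which it is known to form a paracellular chloride path. Its RPKM was 11.1 in cell 3, 0.400 in cell 18, 154 in cell 20, 38.6 in cell 47, 0.523 in cell 53, 242 in cell 57 and 251 in cell 74, with a mean of 99.6 (SD 114). Cells 18 and 53 fell below the detection limit although both carried Cldn3 and Cldn6. Cldn4 was detected in 0 of 46 Six2-detecting cells, which allows a share of up to 6.52%, and in 1 of 33 remaining cells, at 1.00.

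Cldn7 and Cldn8 were detected in every bud cell at levels that spanned more than an order of magnitude. Cldn7, a claudin that also lies along the basolateral membrane, had 40.6 in cell 3, 77.4 in cell 18, 48.2 in cell 20, 122 in cell 47, 177 in cell 53, 5.42 in cell 57 and 161 in cell 74 (mean 90.2, SD 64.7). Its lowest bud cell, cell 57, lay below the highest Six2-detecting cell at 9.95 and the highest remaining cell at 10.5, so here the classes overlapped. Cldn8 had 6.59 in cell 3, 149 in cell 18, 27.5 in cell 20, 42.8 in cell 47, 15.9 in cell 53, 151 in cell 57 and 179 in cell 74 (mean 81.7, SD 74.4). Cldn8 was the member with the cleanest split: it was detected in 0 of 46 Six2-detecting cells (highest 0.292) and in 0 of 33 remaining cells (highest 0.395), which allows shares of up to 6.52% and 9.09%.

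Relative to the mean, bud cells varied least in Cldn6 and Cldn3. Cell 74 was high in all 5 bud claudins, and cell 57, which had the lowest Cldn7, was among the highest in Cldn3, Cldn4 and Cldn8. Cell 3 had the highest Cldn6 and the lowest Cldn8. Of the 7 cells, 5 detected all 5 bud claudins.

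**Figure D2:**
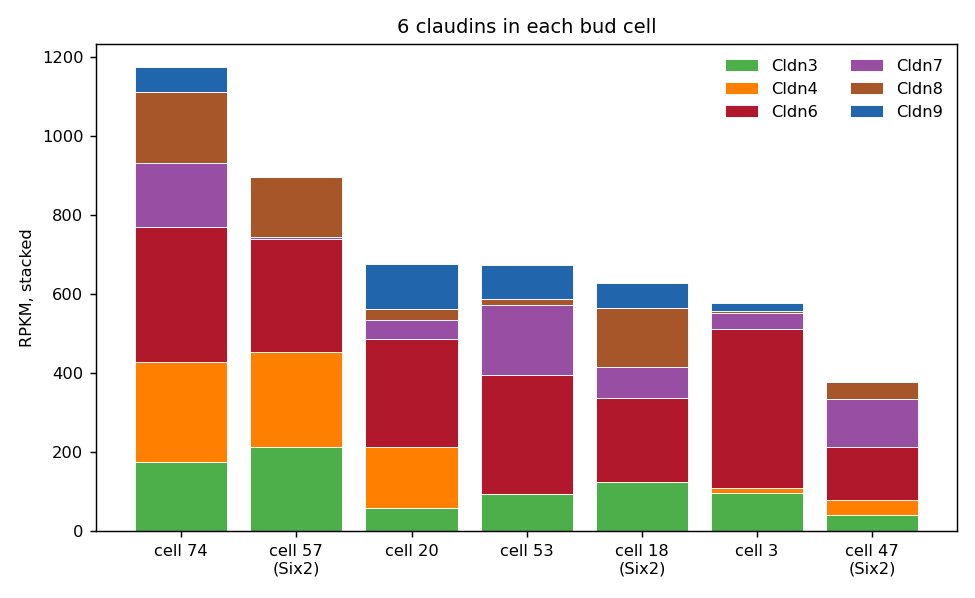
Stacked RPKM of the 6 claudins in each of the 7 bud cells, ordered by their sum from 1175 in cell 74 to 378 in cell 47; a cell that detects Six2 is marked. Cldn6 is the largest single part of every bar, while the parts of Cldn4, Cldn7, Cldn8 and Cldn9 range from under 10 to over 100.

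Of the bud cells, 3 also detected Six2: cell 57 at 50.4, cell 18 at 18.6 and cell 47 at 12.1. Of the 10 progenitor markers other than Six2, these 3 detected 4 to 6, against 1 to 4 in the 4 bud cells without Six2. The part of these markers in the claudin values was not tested. Cldn9 averaged 21.3 in the 3 bud cells with Six2 and 70.7 (SD 40.2) in the 4 without. In single cells Cldn9 had 63.3 in cell 18, 0 in cell 47 and 0.575 in cell 57, against 18.9 in cell 3, 114 in cell 20, 86.3 in cell 53 and 63.9 in cell 74. Cells 47 and 57 are also among the cells of the authors' comparison of Six2 progenitors, described further on.

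As a log2 ratio of (mean RPKM + 1), Cldn3 was at 6.54 in bud over Six2-detecting cells and 6.61 in bud over remaining cells. Cldn4 was at 6.64 and 6.50, Cldn6 at 6.32 and 7.36, Cldn7 at 6.18 and 5.82, and Cldn8 at 6.34 and 6.31 in the same comparisons. These 5 of 6 members passed the fold used here (a log2 ratio of 2 or more, and a mean RPKM of 10 or more in whichever class is higher). Over all genes, 1.8% passed it upward in bud over Six2-detecting cells and 2.11% in bud over remaining cells, but the choice of members used both contrasts. Cldn9 was at -0.78 in bud over Six2-detecting cells and 1.05 in bud over remaining cells.

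Outside the bud class, 4 cells had a bud claudin at an RPKM of 10 or more, a limit set after seeing the values. Cldn6 was at 60.4 in cell 79 and 53.3 in cell 43, both Six2-detecting, and at 21.6 in cell 5, a remaining cell. Cldn7 was at 10.5 in cell 60, a remaining cell. The 3 cells with Cldn6 were cells with genes of early nephron induction: each detected Wnt4, the signal that starts epithelial conversion, with the nephron transcription factors Lhx1 and Pax8, and each detected Cldn9.

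Of 5 non-bud cells that detected Wnt4, Lhx1 and Pax8, 3 detected Cldn6 and 4 detected Cldn9. Of 7 non-bud cells with Wnt4 at 10 or more, likewise a limit set after seeing the values, 3 detected Cldn6 and 6 detected Cldn9. Among all 79 non-bud cells, 3 detected Cldn6 and 44 detected Cldn9. Of the 46 Six2-detecting cells 37 (80.4%) detected Cldn9, so the counts of Cldn9 are close to its share in that class. Cells 43 and 79 detected 0 of 11 ureteric bud markers, while cell 5 detected 4. With so few cells this is a description of single cells, and the 136 bases between the genes, read without stated strand, mean that a read running past the end of one could be counted for the other.

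Cldn9 was the main claudin of Six2-detecting cells. It was detected in 37 of the 46 (80.4%, interval 66.1 to 90.6%), with a lowest value of 0, a median of 66.7 and a highest of 348. Its RPKM was at 10 or more in 34 of them and at 100 or more in 17. It was above Six2 in 32 of the 46 cells and the highest of the 12 claudins in 27. In 13 others the highest was the row named Cldn25, whose gene identifier (224250) RefSeq gives to Cldnd1, a claudin-domain gene.

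In the remaining cells Cldn9 was detected in a smaller share of cells, some of them at high levels. It was found in 7 of 33 (21.2%, interval 8.98 to 38.9%), at 375 in cell 29, 143 in cell 61, 119 in cell 40, 69.5 in cell 73, 33.8 in cell 68, 20.8 in cell 60 and 11.5 in cell 5. The median of the class was 0. The 2 classes overlapped over their whole range, and the highest Cldn9 value of all was that of cell 29, a cell of few genes (4377 detected).

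The mean of Cldn9 was 86.0 (SD 84.4) in Six2-detecting cells and 23.5 (SD 71.5) in remaining cells, a log2 ratio of 1.83 that does not pass the fold, as 0.243% of all genes do in this direction. The call changed with single cells. Without cell 29 the log2 ratio was 2.69, without cell 61 it was 2.07 and without cell 40 it was 2.02, each past the fold, alternatives chosen after seeing the data. As a difference of mean log2 values it was 3.62.

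The 7 remaining cells with Cldn9 were not free of kidney lineage genes. Their summed RPKM of the 11 nephron progenitor markers had a median of 543, against 76.4 in the 26 without Cldn9, and that of 8 induced nephron markers a median of 198, against 67.8. Their summed stroma markers had a median of 312, against 737. Cell 68 detected 9 of the 11 progenitor markers without Six2, and cell 5 detected all 8 induced nephron markers. The part of these markers in the Cldn9 values was not tested.

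Among the Six2-detecting cells, Cldn9 differed little between progenitor states relative to its spread. Cited1, a cofactor confined to the least committed progenitors, split the cells into 29 with it, of which 24 detected Cldn9 (mean 82.8, SD 76.6), and 17 without it, of which 13 did (mean 91.3, SD 98.7). The log2 ratio was -0.14, far within the spread of the cells, and it turned to 0.13 as a difference of mean log2 values. It also turned positive when cell 33, 48 or 72 was left out (0.10 at most). Over all genes, 0.477% passed the fold upward in this split and 0.413% downward, and Cldn9 did neither.

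Cells that detected Wnt4, Lhx1 or Pax8 carried Cldn9 in 18 of 20 cells, with a mean of 103 (SD 101), and the others in 19 of 26, with a mean of 72.8 (SD 68.7). The log2 ratio of 0.50 was within the spread of the cells, and it was -0.010 with a detection limit of 3. Cells with Foxd1 carried Cldn9 in 25 of 31 cells (mean 77.3, SD 80.2) and those without it in 12 of 15 (mean 104, SD 92.7), a log2 ratio of -0.42. Cldn9 passed the fold in neither split, where 0.267% of all genes passed it upward and 0.55% downward for the induction genes, and 0.769% upward and 0.599% downward for Foxd1.

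Within the Six2-detecting cells, the level of Cldn9 was nearly unrelated to the level of Six2. Over the 46 Six2-detecting cells, Pearson's r of log2 (RPKM + 1) was 0.13 and Spearman's rho 0.0851, and r was 0.0771 without the 2 cells farthest from the median of Six2. In the 23 cells with higher Six2 (34.5 to 88.9), 18 detected Cldn9 and the median was 93.6, while in the 23 with lower Six2 (1.50 to 31.6), 19 detected it and the median was 64.2. Over all 79 non-bud cells r was 0.55 and rho 0.482 (r was 0.54 without the 2 farthest cells). These cells share 1 pool and differ in the number of genes detected: the 37 Six2-detecting cells with Cldn9 had a median of 6473 genes and the 9 without it 6059, and the part of depth in this was not tested.

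**Figure D3:**
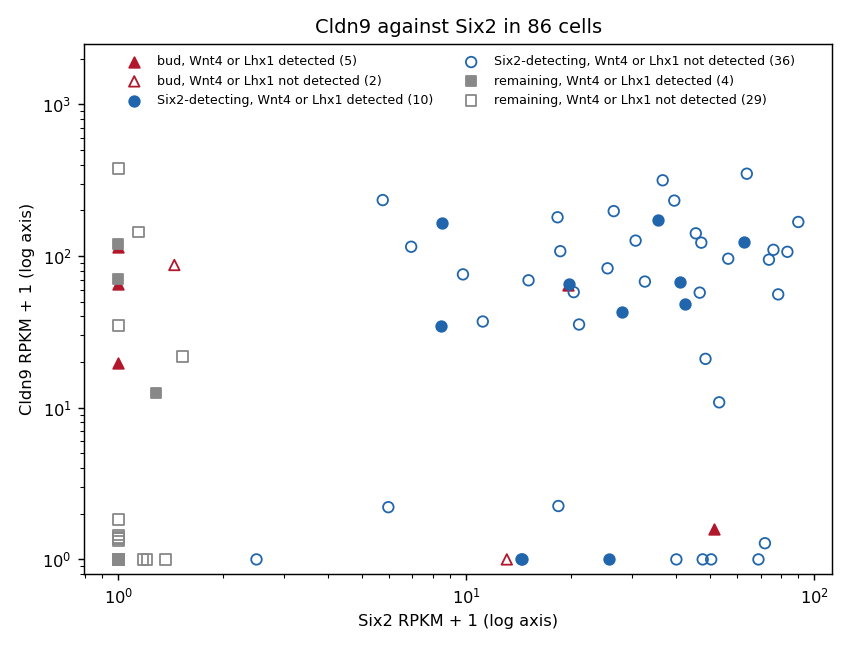
Cldn9 against Six2 in 86 cells, as RPKM + 1 on log axes; the shape and colour give the class and a filled symbol a cell that detects Wnt4 or Lhx1. Within the 46 Six2-detecting cells the points form no slope (rho 0.0851), and 7 remaining cells reach Cldn9 values from 11.5 to 375 with Six2 below 1.

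None of the other 6 claudin rows passed the fold in any of these comparisons of classes. Cldn25 was detected in 6 of 7 bud, 41 of 46 Six2-detecting and 29 of 33 remaining cells, at means of 36.0, 37.7 and 32.6. Cldn12 was detected in 2, 14 and 12 cells of these classes, Cldn11 in 0, 6 and 6, Cldn10 in 1, 4 and 1, and Cldn1 in 1, 2 and 2. Cldn5, the claudin of endothelium, was detected in 3 remaining cells and was listed at 0 in all bud and Six2-detecting cells. The 3 cells also detected Pax8, at 373 in cell 5, 344 in cell 32 and 2.37 in cell 73. Only 2 of 8 listed endothelium markers are in the table, Cldn5 included, so these cells were not called endothelial.

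The genes whose levels followed the bud claudins most closely over 86 cells were named by Pearson's r of log2 (RPKM + 1) with the mean of the 5. Since the 5 were selected as high in bud cells, any gene confined to bud cells scores high here, and the values support nothing. They were Calb1, a calcium-binding protein of the collecting duct (0.977), Mia1 (0.977), Mal2, which chose the cells (0.974), the retinoic acid enzyme Aldh1a3 (0.957), the transcription factor Sim1 (0.952), Wfdc15b (0.951), the transcription factor Tfap2a (0.950) and the epithelial sorting adaptor Ap1m2 (0.890). Ret, the receptor for Gdnf on bud tips, stood ninth at 0.885. Cldn9 lay at 0.0746 and Cldn1 at 0.0573. Each of the 8 genes was detected in 6 or 7 bud cells and in at most 8 of the other 79.

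For Cldn9, likeness was Spearman's rho over the 79 non-bud cells, among 10447 genes with a median rho of 0.0227. The highest were Crym, a thyroid hormone-binding protein (0.653), the Rac activator Dock5 (0.606), the proteoglycan Spock2 (0.558), the sodium pump regulator Fxyd6 (0.524), Smtnl2 (0.519), the glycolytic enzyme Gapdh (0.497), Gm12070 (0.494) and Wdr53 (0.492). Crym and Spock2 are in the list of nephron progenitor markers. Gapdh and Gm12070 have near-identical sequence, so their split is uncertain. Six2 stood ninth at 0.482, ahead of Pax8 at 0.366 and Cited1 at 0.202. Cldn9 was selected on its level in Six2-detecting cells, so rho over the 79 cells carries the contrast of these with the remaining cells. Within the 46 Six2-detecting cells the rho of Six2 was 0.0851.

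Genes that ran against Cldn9 were the row spelled 02-Sep (gene 18000, Septin2 in RefSeq, a cytoskeletal GTPase, -0.53), Gm16141 (-0.52), the mesenchymal surface protein Cd248 (-0.51) and Maged2 (-0.49). Foxd1 was at -0.25. The cells share library run and pool, and their depth differs, so these are descriptions of likeness in these cells.

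Other tight junction genes were mostly higher in bud cells, and a few passed the fold. Of 21 listed genes 15 are in the table. Of these, 12 had a log2 ratio above 0 in bud over remaining cells, against 5353 of all 12360 genes. In bud over remaining cells 2 passed the fold upward and 0 downward, where 2.11% and 3.16% of all genes did, and the median log2 ratio was 0.35, against -0.14 over all genes. The 2 were Cgn, which links the junction to the cytoskeleton, at 22.3 (SD 11.4) in bud and 0.924 (SD 3.17) in remaining cells, and Lsr, a protein of 3-cell contacts, at 45.2 (SD 38.5) and 4.08 (SD 12.8). Ocln, the strand protein occludin, was detected in 6 of 7 bud cells and 0 of 33 remaining cells, but its bud mean of 7.74 (SD 8.81) is under the minimum. In bud over Six2-detecting cells 2 passed upward and 1 downward, the junction adhesion gene Jam3 at 10.9 (SD 16.3) and 47.0 (SD 39.6), with a median of 0.61 against -0.19 over all genes, of which 1.8% passed upward and 2.02% downward.

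Of 12 listed membrane partners of claudins and their proteases 10 are in the table. In bud over remaining cells 6 passed the fold upward and 1 downward, against 2.11% and 3.16% of all genes, with a median of 2.53. Epcam, which binds claudin-7 and shields it from breakdown, had a mean of 148 (SD 102) in bud and 1.33 (SD 6.13) in remaining cells. The tetraspanins Cd9 and Cd82, the protease inhibitor Spint2 and the protease Prss8 were among those that passed upward. Efnb1, an ephrin known to bind claudins, passed downward, with 1.06 (SD 0.936) in bud and 13.6 (SD 15.2) in remaining cells. In bud over Six2-detecting cells 6 passed upward and 0 downward, against 1.8% and 2.02% of all genes. Spint2 was the partner gene with the highest ratio in Six2-detecting over remaining cells, at 11.8 (SD 22.1) and 2.53 (SD 10.7), a log2 ratio of 1.85.

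Of 13 listed cell polarity genes 12 are in the table. In bud over remaining cells 1 passed the fold upward and 0 downward, against 2.11% and 3.16% of all genes, and in bud over Six2-detecting cells likewise 1 and 0, against 1.8% and 2.02%. It was Crb3, the apical Crumbs protein, at 34.2 (SD 45.5) in bud and 0.0909 (SD 0.522) in remaining cells. The median was 0.35 in bud over remaining cells and 0.42 in bud over Six2-detecting cells.

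Of 17 cadherin and desmosome genes 14 are in the table. In bud over remaining cells 3 passed upward and 2 downward, against 2.11% and 3.16% of all genes, with a median of 0.77. Upward were the epithelial cadherin Cdh1 at 21.7 (SD 22.5) in bud and 0.585 (SD 3.32) in remaining cells, the placental cadherin Cdh3 and the kidney cadherin Cdh16. Downward were the mesenchymal cadherins Cdh11, at 14.6 (SD 16.2) in bud and 84.2 (SD 62.8) in remaining cells, and Cdh2, at 8.67 (SD 12.6) and 39.2 (SD 34.1). In bud over Six2-detecting cells 3 passed upward and 1 (Cdh11) downward, against 1.8% and 2.02% of all genes.

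Regulators of the epithelial state went both ways. Of 20 listed genes 15 are in the table. In bud over remaining cells 3 passed upward and 3 downward, against 2.11% and 3.16% of all genes, with a median of -0.42. Upward were Gata3, a bud transcription factor, at 156 (SD 42.9) in bud and 7.63 (SD 22.1) in remaining cells, the epithelial factor Elf3 at 35.0 (SD 51.5) and 0.0215 (SD 0.0896), and Ovol1. The AP-2 factors Tfap2a, at 4.04 (SD 2.32) in bud cells and listed at 0 in all remaining cells, and Tfap2b, at 7.00 (SD 7.94) in bud and 0.0143 (SD 0.0465) in remaining cells, are under the minimum mean. Downward were 3 repressors of epithelial genes: Snai2 at 3.08 (SD 7.74) in bud and 91.5 (SD 110) in remaining cells, Snai1 at 0.0364 (SD 0.0963) and 15.2 (SD 22.6), and Zeb1 at 4.80 (SD 11.0) and 23.6 (SD 34.3). In bud over Six2-detecting cells 3 passed upward, and Snai1 and Snai2 passed downward, against 1.8% and 2.02% of all genes. Epcam, Cdh1 and Gata3 are also in the list of bud markers, so they are no separate evidence.

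Between Six2-detecting and remaining cells the lists held no gene past the fold. In Six2-detecting over remaining cells 0 genes of any of the 5 lists passed the fold in either direction, against 0.243% of all genes upward and 0.453% downward. At shares this low, lists of this size are likely to hold 0 such genes, so the count says nothing about the lists. Cdh1, Ocln, Crb3 and Cdh16 were detected in 0 of 46 Six2-detecting cells, while Cdh2 and Cdh11 were detected in all 46. The authors' second table of 450 genes, for cells they call Six2 only against cells with Six2 and Cited1, holds 0 claudins. Its cells include 47 and 57, which are bud cells here. Of the genes in these 5 lists it holds only Snai1, at 5.79 as the signed fold of the authors' deposited table.

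**Figure D4:**
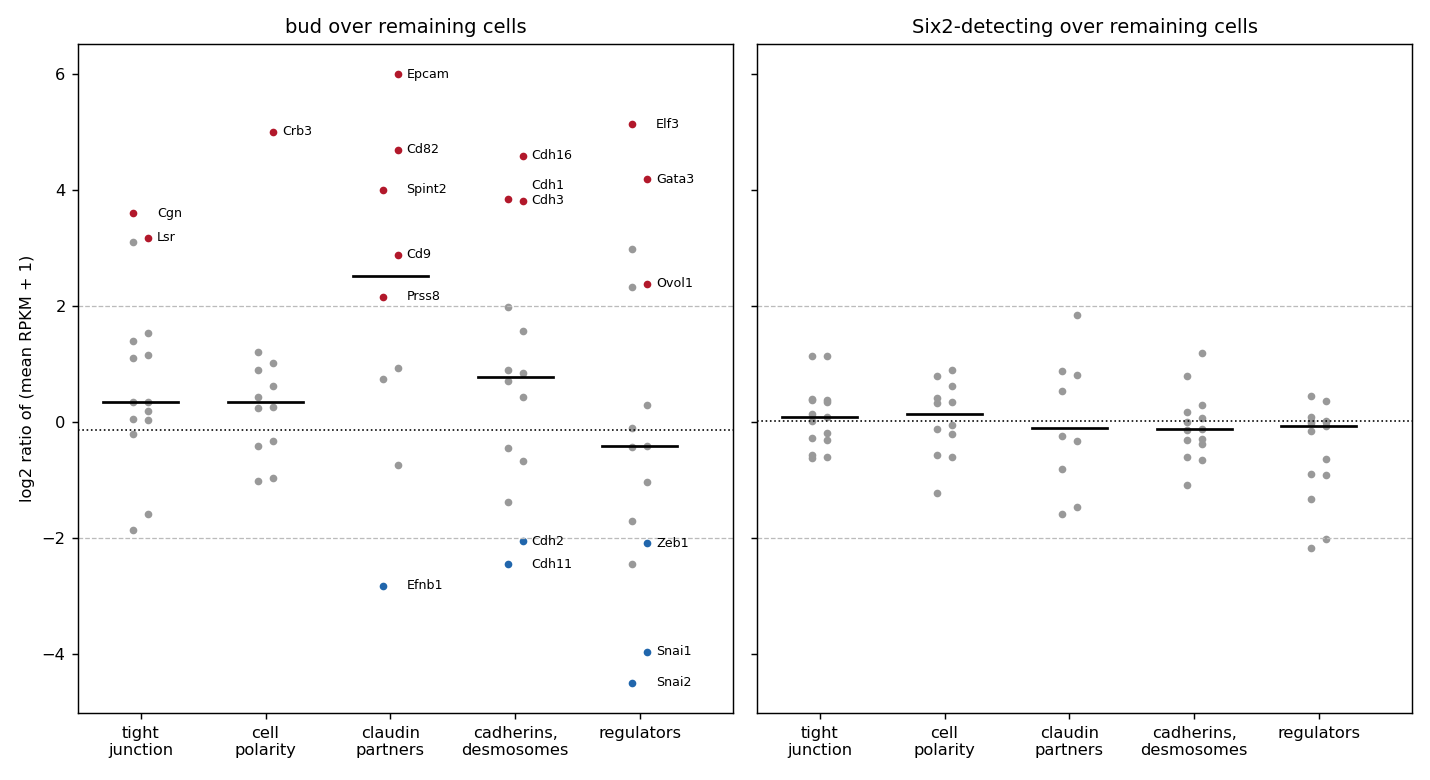
log2 ratio of (mean RPKM + 1) of the genes of 5 lists, in bud over remaining cells and in Six2-detecting over remaining cells. Points are genes, bars list medians, the dotted line the median of all genes and the dashed lines the fold; coloured, named genes passed it with the minimum mean, and 1 claudin partner is not drawn. Of the 5 lists, the claudin partners have the highest median in bud over remaining cells (2.53), and in Six2-detecting over remaining cells no listed gene passes the fold with the minimum mean.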

How the data were processed

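RNA was measured in 86 single cells of 1 pool. The authors deposited a table of RPKM values for 12360 genes in these cells, which lists genes that exceed an RPKM of 3 in 3 or more cells (per the file headers), so the claudins are listed because of the cells in which they are high. A second deposited table holds 450 genes with the authors' signed fold between cells with Six2 only and cells with Six2 and Cited1, a score made by the authors. TopHat 1.4.1, DESeq and mm9 are named, without a role, per the submitters' processing notes. Read totals are unknown and no count model was used.

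Members, classes, lists and motifs were chosen with earlier results of these data known, the motifs with the sequences in view. Ratios are log2 of (mean RPKM + 1), which understates changes of low genes. The fold was passed at a log2 ratio of 2 or more, where the higher class had a mean RPKM of 10 or more. Shares carry exact Clopper-Pearson 95% intervals, and a share of 0 its limit from 3 counts. Both cover counting error only. For 0 of 46 and 0 of 33 cells that limit, 6.52% and 9.09%, lies below the exact upper ends of 7.71% and 10.6%. Named were the claudins, Mal2, Six2, Cited1, Foxd1, Wnt4, Lhx1, Pax8, Ret, Gata3, the 8 genes most like Cldn9 (detected in at least 10 cells) and the 4 least like, the 8 most like the bud claudins (in at least 5 cells), and up to 3 genes from each end of each list with a mean RPKM of at least 1; other list genes that passed the fold were named after their values were seen. Tfap2a and Tfap2b were matched to the list through their older RefSeq symbols. Of the listed genes, 1 is counted but not reported here by name. No doublet caller was run, and all cells were kept.

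Promoters are from RefSeq (GRCm38.p6) and coding sequences from GENCODE M21 (GRCm38), by symbol and gene identifier. Of the 6 members, 4 have a promoter entry. The tools were Biopython 1.88, matplotlib 3.10.9, scipy 1.17.1, pandas 2.3.3 and numpy 2.4.6 under Python 3.11.15, and the calculations were tested on simulated data. The alternatives were a pseudocount of 0.1, means of log2 values, detection at an RPKM of 3 or 10, and no minimum mean. Others left out cells of few genes (over 3 median absolute deviations below the median), bud cells with Six2, or single cells in turn. Single cells were left out of the class with the higher mean only. For Cldn9 in Six2-detecting over remaining cells they were left out of both classes.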

Additional observations from a re-analysis of the deposited data

How the results depend on the processing

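Of 407 values recomputed under other settings, 384 kept their direction and stayed within the spread of the cells or, for counts, within 1.5 times. Of the others, 18 moved and 5 reversed. Most of the 407 left out 1 cell, which can move a mean over many cells only little, so these counts do not measure robustness. A value counted as kept could still cross the fold, as Cldn9 in Six2-detecting over remaining cells did without cell 29 (2.69, against 1.83). With a pseudocount of 0.1 the median of the 5 bud claudins was 8.35 in bud over Six2-detecting cells and 8.65 in bud over remaining cells, against 6.34 and 6.50. Leaving out 1 bud cell at a time kept these medians between 6.23 and 6.54 and between 6.09 and 6.66. Cldn9 in bud over Six2-detecting cells was -0.28 without the 3 bud cells that detect Six2, against -0.78. In Six2-detecting over remaining cells Cldn9 lay between 1.73 and 2.69 with 1 cell left out, was 2.59 without cells of few genes, which drops cell 29, and 1.27 with detection at 10. The Cited1 split of Cldn9 was 0.13 with mean log2 values. It lay between -0.23 and 0.10 with 1 of the 17 cells without Cited1 left out, and cells with Cited1 were not left out in turn. It was positive without cell 33 (0.0044), 48 (0.10) or 72 (0.0064). The induction split was -0.010 with detection at 3. With no minimum mean, 351 genes passed the fold upward and 736 downward in bud over Six2-detecting cells (223 and 250 with it), 413 and 902 in bud over remaining cells (261 and 390), and 97 and 115 in Six2-detecting over remaining cells (30 and 56). With mean log2 values, 97, 131 and 9 passed downward in these comparisons. The causes were not tested. Since all cells are 1 sample of unknown read depth, no setting measures the spread between embryos, and a gene at 0 may have been missed. No paired analysis was possible because the cells form 1 group and no result comes from a test.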
